A study of Rattus norvegicus with 10 samples.

Results

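Microglia are the resident macrophages of the retina, and 10 genes that mark them or that they use were followed across the 10 arrays of a study of early oxygen-induced retinopathy. The genes were C1qa, C1qb and C1qc (the chains of complement C1q), Csf1r, Cx3cr1 and P2ry12 (surface receptors), Itgam (an integrin chain), Tyrobp and Fcer1g (signalling adaptors) and Aif1 (the calcium-binding protein Iba1). They were chosen by name as microglia and C1q genes, with earlier results of these data known, and no threshold on their values was applied. All 10 were found among the 14324 genes that had a probe set with a single gene symbol, and each was read from its brightest such probe set.

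Each array was hybridised with retinal RNA of postnatal day 3 rats, extracted from individual animals and pooled from 3 rats of 2 litters, so the variation between single animals was not measured. The groups were Sprague Dawley (SD) pups in cyclic hyperoxia (2 pools), SD pups in room air (3 pools), Fischer 344 (F344) pups in cyclic hyperoxia (3 pools) and F344 pups in room air (2 pools). Cyclic hyperoxia began within 12 hours of birth, in litters kept with their mothers, and alternated 24 hours of 80% oxygen with 24 hours of 21% oxygen until day 3. The study's design describes SD as the susceptible and F344 as the resistant strain, and it adds that 2 arrays, 1 in SD room air and 1 in F344 hyperoxia, joined the first 8. Those are taken here to be the arrays numbered 3 in these groups, an inference from the numbering. No group carried an engineered allele, and no cells were sorted: retinal microglia were measured within whole-retina RNA.

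Values are deposited log2 expression values, given to 1 decimal, so a difference of 1 is a doubling of signal. Array medians lay between 5.9 and 6, and the correlation between arrays over all probe sets was between 0.984 and 0.996, with 0 identical pairs. The 14 measured neural retina markers averaged between 9.21 and 9.44 in every array, so the markers of the labelled tissue were present as a list. Their means over the arrays ran from 5.79 for Ptf1a to 12.02 for Neurod1, and Ptf1a was below the median of all probe set means, 5.96. The markers of border macrophages averaged between 4.65 and 4.84, and those of neutrophils and lymphocytes between 4.66 and 4.85. With 2 or 3 arrays a group, precision is limited, and p-values measure the spread between these pools.

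In the developing retina, microglia enter before and during vessel growth, clear dying cells, prune synapses and keep company with the tips of new vessels. C1q is the recognition molecule that starts the classical complement cascade, and in the central nervous system microglia are its main source. Csf1r, activated by Csf1 or Il34, keeps microglia alive. Cx3cr1 answers the neuronal ligand Cx3cl1, and P2ry12 senses nucleotides released from nearby cells. Tyrobp and Fcer1g carry no ligand site of their own, and pass the signals of Trem2 and of Fc receptors on to the kinase Syk.

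The order of genes in the rat assembly GRCr8 places C1qb, C1qc and C1qa next to each other on chromosome 5, as 3 neighbours in that order. P2ry12 lies beside its relative P2ry13, Tyrobp beside the adaptor gene Hcst, and Itgam beside the integrin gene Itgax. The RefSeq promoter table of that assembly, which holds 250 bases before and 50 after each gene's start, matched 5 of the 10 genes (C1qa, C1qb, Csf1r, Cx3cr1 and Itgam). C1qa and C1qb are shown because they flank C1qc, the 1 gene of the 10 that was called between the strains. Capitals mark GAGGAA, the core letters bound by the macrophage factor PU.1, or its reverse complement TTCCTC. Both sequences are written along the gene's own strand, which is the minus strand, at chr5:154419884-154420183 for C1qa and at chr5:154407778-154408077 for C1qb.
C1qa: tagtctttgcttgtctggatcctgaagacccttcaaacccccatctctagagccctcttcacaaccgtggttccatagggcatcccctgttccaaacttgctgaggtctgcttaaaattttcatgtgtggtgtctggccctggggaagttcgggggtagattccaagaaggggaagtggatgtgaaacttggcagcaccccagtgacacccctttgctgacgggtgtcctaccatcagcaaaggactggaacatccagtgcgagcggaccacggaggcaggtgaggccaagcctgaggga
C1qb: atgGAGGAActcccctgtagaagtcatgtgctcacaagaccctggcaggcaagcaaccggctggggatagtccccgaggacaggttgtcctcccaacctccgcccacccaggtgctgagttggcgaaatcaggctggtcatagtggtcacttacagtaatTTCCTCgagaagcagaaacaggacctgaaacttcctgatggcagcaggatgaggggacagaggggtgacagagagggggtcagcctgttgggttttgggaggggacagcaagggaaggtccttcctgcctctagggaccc
GAGGAA was searched on both strands. C1qb held 2 matches, 1 on each strand, whose first bases lay 247 and 90 bases before the start, and C1qa held 0. Csf1r and Itgam held 2 matches each, and Cx3cr1 held 0. The letters were thus present in 3 of 5 promoters of these genes, against 27.6% of the 33469 promoters in the table. This match is a description and not a measurement of binding.

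The C1q chains differed from each other in the 4 groups. C1qc (probe set 10880731) read 5.9 and 5.9 in SD hyperoxia, 6.3, 6.2 and 6.6 in SD room air, 5.9, 5.9 and 6.0 in F344 hyperoxia, and 5.7 and 5.7 in F344 room air. Every SD room-air pool was above all other pools, and both F344 room-air pools were below all others. C1qb (probe set 10880727) read 6.1 and 5.9 in SD hyperoxia, 6.0, 6.4 and 6.3 in SD room air, 6.0, 5.9 and 6.0 in F344 hyperoxia, and 6.0 and 5.8 in F344 room air. The 2 highest C1qb values were again SD room-air pools, but all groups overlapped. C1qa (probe set 10880734) read 6.0 and 5.7 in SD hyperoxia, 5.7, 5.8 and 5.6 in SD room air, 5.7, 5.8 and 5.7 in F344 hyperoxia, and 5.9 and 5.6 in F344 room air. Its groups overlapped too, and the highest pool was an SD hyperoxia pool.

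The receptors and Itgam followed. Csf1r (probe set 10802065), the receptor tyrosine kinase for Csf1 and Il34, read 6.8 and 6.7 in SD hyperoxia, 6.6, 6.9 and 6.6 in SD room air, 6.4, 6.8 and 6.3 in F344 hyperoxia, and 6.6 and 6.8 in F344 room air. Cx3cr1 (probe set 10920981), the fractalkine receptor, read 6.0 and 5.6 in SD hyperoxia, 6.1, 5.8 and 6.0 in SD room air, 5.9, 5.9 and 5.7 in F344 hyperoxia, and 5.9 and 6.1 in F344 room air. P2ry12 (probe set 10823365), the purinergic receptor that marks resting microglia, read 5.7 and 6.0 in SD hyperoxia, 5.8, 6.1 and 6.2 in SD room air, 5.8, 5.9 and 6.2 in F344 hyperoxia, and 6.0 and 5.8 in F344 room air. In all 3 receptors, hyperoxia and room air overlapped within each strain. Itgam (probe set 10711268), the alpha chain of complement receptor CR3, read 4.6 and 4.5 in SD hyperoxia, 4.5, 4.6 and 4.5 in SD room air, 4.4, 4.3 and 4.5 in F344 hyperoxia, and 4.6 and 4.4 in F344 room air. It had the lowest mean of the 10, above 11.1% of all probe sets, and its whole range over the arrays was 0.3.

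Fcer1g had the widest range over the arrays, at 1.2, followed by Aif1 and C1qc at 0.9 each, and Tyrobp ranged over 0.5. Fcer1g (probe set 10769825), the common gamma chain of Fc receptors, read 5.8 and 5.7 in SD hyperoxia, 5.9, 6.3 and 6.9 in SD room air, 5.7, 6.1 and 6.6 in F344 hyperoxia, and 5.8 and 5.9 in F344 room air. Aif1 (probe set 10828032), an actin-bundling protein used to stain microglia, read 4.9 and 4.9 in SD hyperoxia, 5.2, 5.2 and 5.7 in SD room air, 5.4, 5.2 and 5.8 in F344 hyperoxia, and 5.3 and 5.1 in F344 room air. Tyrobp (probe set 10705874), the adaptor also called DAP12, read 5.0 and 5.0 in SD hyperoxia, 5.0, 4.8 and 5.3 in SD room air, 4.8, 5.0 and 5.2 in F344 hyperoxia, and 5.0 and 5.0 in F344 room air. In all 3 genes the third pool of SD room air and the third pool of F344 hyperoxia were the highest of the 10. The median range over the arrays was 0.55 among the 10 genes and 0.40 among all genes.

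**Figure D1:**
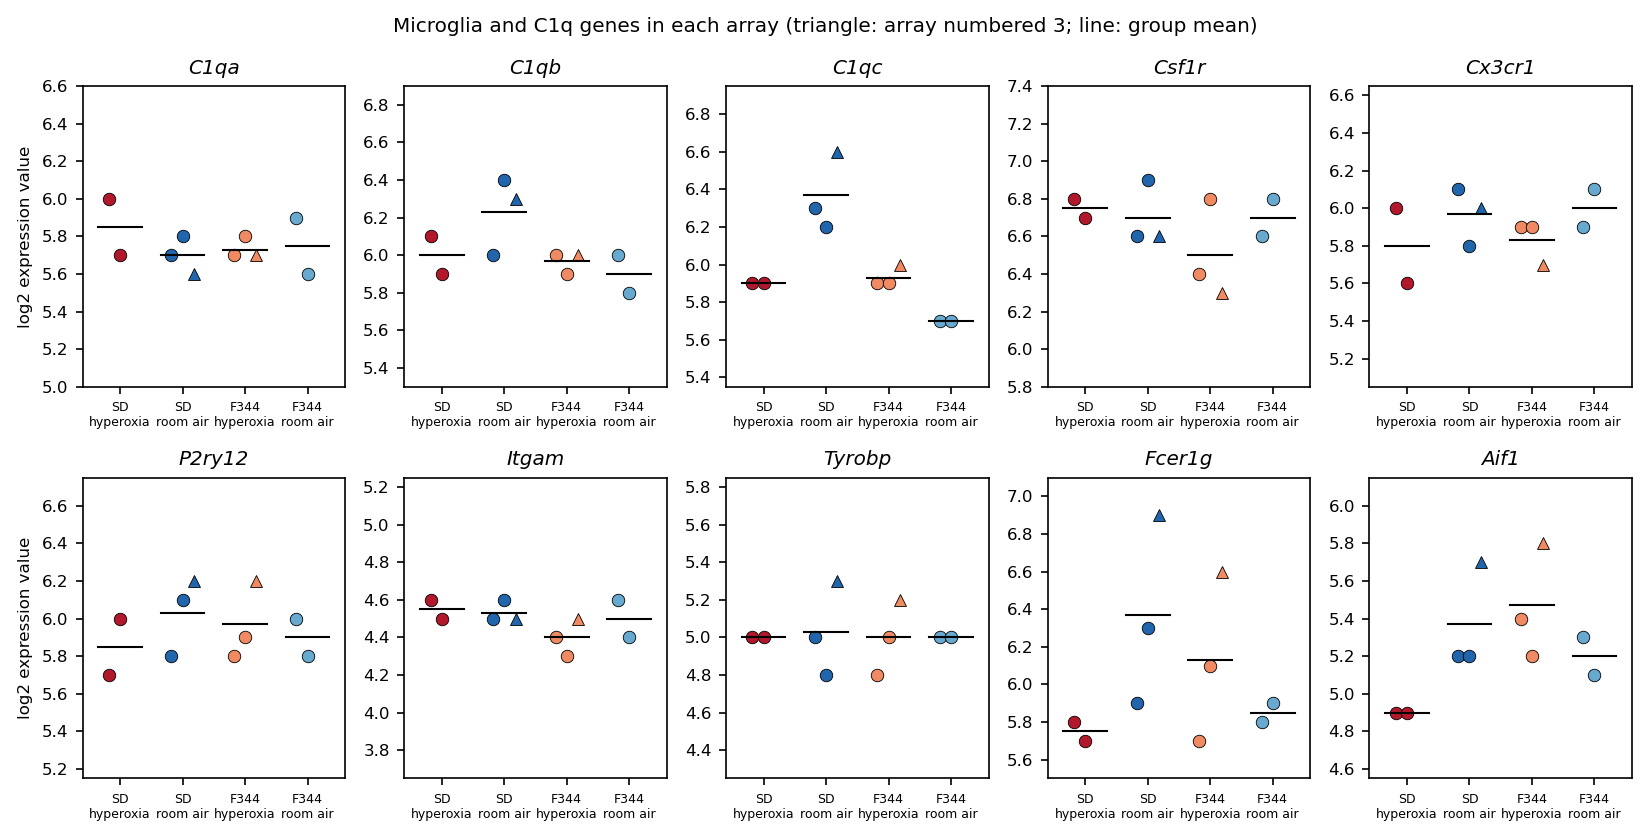
Log2 expression value (vertical axis, 1.6 units in every panel) of the 10 genes in each array, by group, with group means as lines and arrays numbered 3 as triangles. C1qc lies highest in the 3 SD room-air pools, and Fcer1g, Aif1 and Tyrobp lie highest in both arrays numbered 3.

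Cyclic hyperoxia was compared with room air within each strain to ask whether exposure moved these genes. In SD, 0 of the 10 passed, where 0.0439% of all probe sets did (limma, Benjamini-Hochberg adjusted p under 0.05). C1qc averaged 5.90 ± 0.00 in SD hyperoxia and 6.37 ± 0.21 in SD room air (SD of 2 and 3 pools), a log2 difference of -0.47 with a standard error of 0.122 and a 95% interval of -0.73 to -0.20, and limma's adjusted p was 0.643. Fcer1g averaged 5.75 ± 0.07 in SD hyperoxia and 6.37 ± 0.50 in SD room air, a log2 difference of -0.62 (standard error 0.268, limma adjusted p = 0.815). Aif1 averaged 4.90 ± 0.00 in SD hyperoxia and 5.37 ± 0.29 in SD room air, a log2 difference of -0.47 (standard error 0.184, limma adjusted p = 0.815). A standard deviation of 0.00 here means equal values at 1 decimal. None of these differences passed. In whole-retina RNA, a change in the number of microglia and one in RNA per microglial cell cannot be told apart.

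In these 3 genes both SD hyperoxia pools lay below all 3 SD room-air pools, as in 8.06% of all probe sets. Those 3 were also the members with an unadjusted p below 0.05, as were 4.68% of all genes. C1qb differed by -0.23, P2ry12 by -0.18, Cx3cr1 by -0.17, Tyrobp by -0.03, Itgam by 0.02, Csf1r by 0.05 and C1qa by 0.15 on the log2 scale. The median over the 10 genes was -0.18, with 7 below 0, beside 0.00 over all 14324 genes. Without both arrays numbered 3, 1 of them an SD room-air pool, Fcer1g differed by -0.35, Aif1 by -0.30 and C1qc by -0.35, and the median of the 10 was -0.12.

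In F344, 0 of the 10 genes passed, where 0.00366% of all probe sets did by limma. C1qc averaged 5.93 ± 0.06 in F344 hyperoxia and 5.70 ± 0.00 in F344 room air, a log2 difference of 0.23 with a 95% interval of -0.03 to 0.50 (limma adjusted p = 0.921). It was the only member whose 3 exposed pools all lay above both room-air pools, as in 5.97% of all probe sets. Fcer1g differed by 0.28 (standard error 0.268) and Aif1 by 0.27 (standard error 0.184), and with a term for the arrays numbered 3 these differences were 0.03 and 0.10. C1qb and P2ry12 differed by 0.07 each, Tyrobp by 0.00, C1qa by -0.02, Itgam by -0.10, Cx3cr1 by -0.17 and Csf1r by -0.20. The median of the 10 was 0.03, beside 0.00 over all genes, and 0 of the 10 had an unadjusted p below 0.05.

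**Figure D2:**
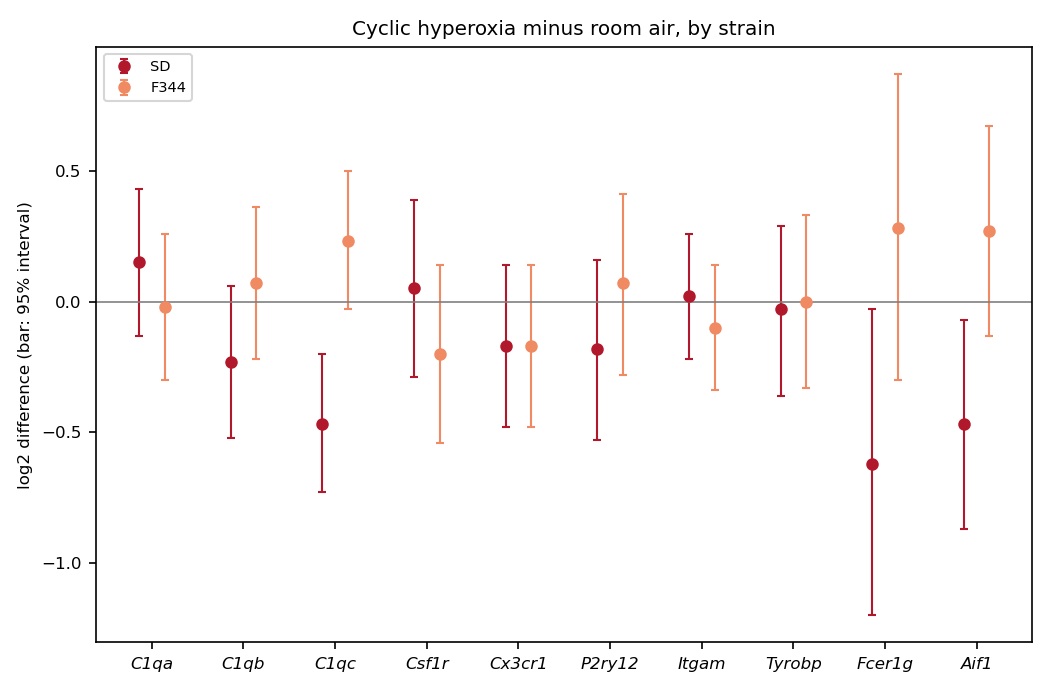
Log2 difference of cyclic hyperoxia minus room air (vertical axis) for the 10 genes in SD and in F344, with 95% intervals from limma. The SD intervals of C1qc, Fcer1g and Aif1 lie below 0, those of the other SD genes and of all F344 genes include 0, and 0 genes passed after adjustment.

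The effects of the strains were then compared directly, as SD effect minus F344 effect. For this difference 0 of the 10 genes passed, as did 0% of all probe sets. The differences furthest from 0 were -0.90 for Fcer1g (standard error 0.379), -0.73 for Aif1 (standard error 0.261) and -0.70 for C1qc (standard error 0.173), and limma gave each an adjusted p of 0.651. These 3 had an unadjusted p below 0.05, as did 6.98% of all genes. With the term for the arrays numbered 3 they became -0.40, -0.40 and -0.55. Averaged over both strains, 0 of the 10 genes passed, where 0.0402% of all probe sets did. The averaged differences were below 0 in 9 of 10 genes, with a median of -0.08 beside 0.01 over all genes, and reached -0.17 in Cx3cr1 and Fcer1g.

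SD and F344 were also compared at equal exposure. In room air 1 of the 10 genes passed, where 0.556% of all probe sets did. That gene was C1qc, which averaged 6.37 ± 0.21 in SD room air and 5.70 ± 0.00 in F344 room air (SD of 3 and 2 pools). It was higher in SD by 0.67 on the log2 scale (standard error 0.122, 95% interval 0.40 to 0.93), a fold of 1.59, with a limma adjusted p of 0.0308. All 3 SD pools lay above both F344 pools, as in 9.94% of all probe sets. Its neighbours did not pass: C1qb differed by 0.33 (standard error 0.133, limma adjusted p = 0.373) and C1qa by -0.05. Whether C1qc differed from C1qa and C1qb in this respect was not tested. Fcer1g differed by 0.52 (limma adjusted p = 0.493), Aif1 by 0.17 and P2ry12 by 0.13, and the other 4 members by -0.03 to 0.03. Without SD room-air pool 3, Fcer1g differed by 0.25 and Aif1 by 0.00.

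The C1qc call was close to the threshold. It passed in 2 of 10 fits that left out 1 array each. The adjusted p was 0.0317 when F344 hyperoxia pool 3 was left out and 0.0351 when SD room-air pool 2 was. It was 0.0605 and 0.0519 without F344 hyperoxia pools 1 and 2, 0.243 and 0.347 without F344 room-air pools 1 and 2, 0.0755 without either SD hyperoxia pool, and 0.0699 and 0.0504 with SD room-air pools 1 and 3 omitted. The difference itself stayed between 0.55 and 0.75. Red blood cell markers averaged 5.33 to 5.73 in SD room-air pools and 5.17 to 5.36 in F344 room-air pools. Their differences ran from -0.13 to 1.17 with a median of 0.07, and 3 of 7 were below 0. The part of these markers in the C1qc difference was not tested.

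In hyperoxia 0 of the 10 genes passed between the strains, where 0.457% of all probe sets did. C1qc averaged 5.90 ± 0.00 in SD and 5.93 ± 0.06 in F344, a log2 difference of -0.03 with a 95% interval of -0.30 to 0.23. Aif1 averaged 4.90 ± 0.00 in SD and 5.47 ± 0.31 in F344, a log2 difference of -0.57 (standard error 0.184, limma adjusted p = 0.434). Both SD pools lay below all 3 F344 pools for Aif1 alone of the 10, as in 7.12% of all probe sets. Aif1 differed by -0.40 without F344 hyperoxia pool 3 and by -0.70 without F344 hyperoxia pool 2. Fcer1g differed by -0.38, and by -0.15 without F344 hyperoxia pool 3. Csf1r differed by 0.25 and the other 6 members by -0.12 to 0.15.

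**Figure D3:**
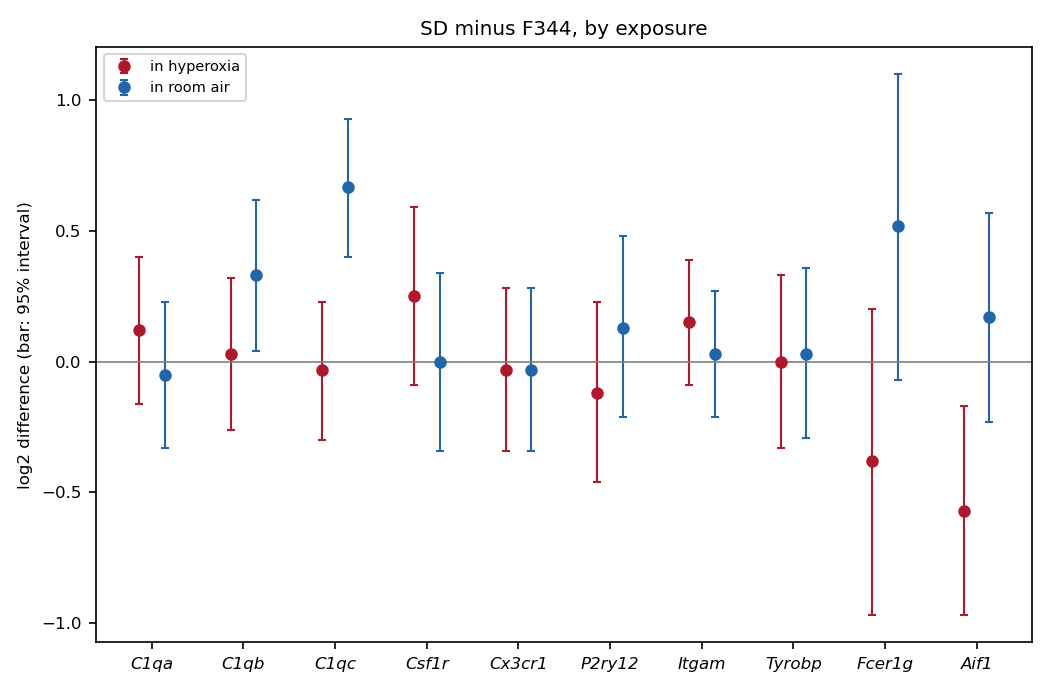
Log2 difference of SD minus F344 (vertical axis) for the 10 genes in hyperoxia and in room air, with 95% intervals from limma. C1qc in room air, at 0.67, is the 1 value that passed after adjustment, and Aif1 in hyperoxia, at -0.57, did not.

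Both arrays numbered 3 stood apart in part of these genes. This was seen in the data first and then estimated as a term in the model, so it describes these arrays. Fcer1g was 0.75 higher in them than in the other 8 arrays with group means removed (standard error 0.13, limma adjusted p = 0.00246), Aif1 0.50 higher (standard error 0.0954, limma adjusted p = 0.00433) and Tyrobp 0.35 higher (standard error 0.0964, limma adjusted p = 0.028). Thus 3 of 10 genes were called higher and 0 lower, where 7.22% of all probe sets were called higher and 7.62% lower. These 3 and P2ry12 were above all other arrays in both arrays numbered 3, as in 8.62% of all probe sets. P2ry12 differed by 0.30 (limma adjusted p = 0.11), C1qc by 0.22 (limma adjusted p = 0.124) and Csf1r by -0.23 (limma adjusted p = 0.284).

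The direction of these 3 genes was the same in every fit that left out 1 array, between 0.66 and 0.84 for Fcer1g, 0.46 and 0.54 for Aif1 and 0.30 and 0.40 for Tyrobp. Without SD room-air pool 3 the adjusted p was 0.125 for Fcer1g, 0.0961 for Aif1 and 0.274 for Tyrobp, so 0 passed. Without F344 hyperoxia pool 3 it was 0.0787, 0.0853 and 0.143, and again 0 passed. Tyrobp alone was lost when F344 hyperoxia pool 1 was left out (adjusted p = 0.0649). The same held for SD room-air pool 2 (adjusted p = 0.0619) and for arrays centred on their medians (0.28, adjusted p = 0.123). Median centring turned the calls over all probe sets to 1172 higher and 2909 lower, against 1973 higher and 2084 lower without it.

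Other genes moved with the same arrays. Of 16 genes of proliferating cells, 11 were called lower in the arrays numbered 3, where 7.62% of all probe sets were. The list median was -0.44, and the list averaged 9.01 and 9.09 in those arrays. The red blood cell gene Hbb was 0.68 higher, the neutrophil granule gene Ngp 0.38 higher and the photoreceptor gene Rcvrn 0.90 higher. Each was the only called gene of its list, where 7.22% of all probe sets were called higher. The medians of the red blood cell, neutrophil and lymphocyte, and neural retina lists were 0.05 each. Values went down to -0.28 among neutrophil and lymphocyte markers and to -0.35 among neural retina markers, of which 5 of 14 were below 0. Of 12 border macrophage markers 0 were called, beside 7.22% of all probe sets called higher and 7.62% lower. Of 27 further microglial genes 0 were called, with a median of 0.07. Their part in the values of Fcer1g, Aif1 and Tyrobp was not tested.

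**Figure D4:**
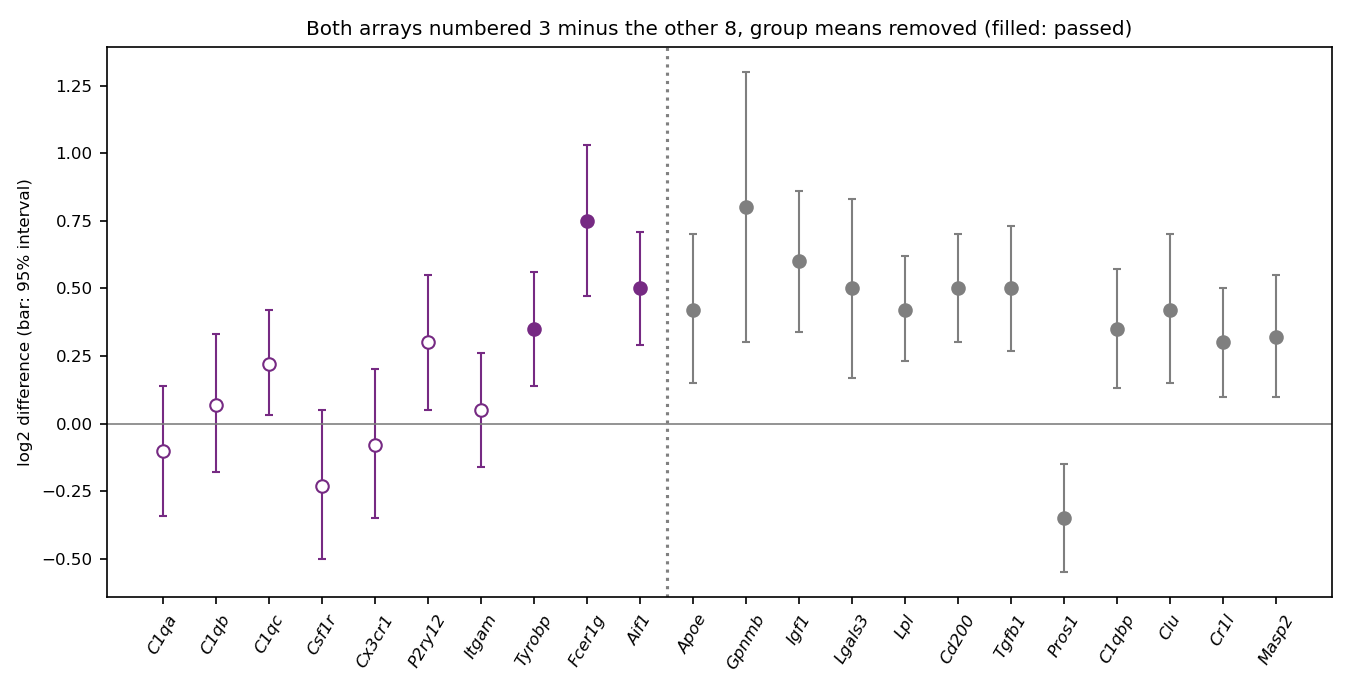
Log2 difference of both arrays numbered 3 minus the other 8, group means removed (vertical axis), with 95% intervals from limma, for the 10 genes left of the dotted line and for called activation, ligand and complement genes right of it. Filled points passed after adjustment, among them Fcer1g at 0.75, Aif1 at 0.50 and Tyrobp at 0.35.

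Ligands and partners of the receptors were read beside them. Csf1 differed by -0.13 in SD and -0.05 in F344 between hyperoxia and room air, Il34 by -0.05 in each strain, and Cx3cl1 by -0.18 in SD and 0.00 in F344. Trem2, the lipid-sensing receptor that signals through Tyrobp, differed by -0.17 in SD and 0.13 in F344. Itgb2, the beta chain that pairs with Itgam, differed by 0.05 in SD and -0.10 in F344, and Tmem119, a marker of mature microglia, by 0.02 in SD and -0.08 in F344. C3, the complement component that C1q activity leads to, differed by 0.07 in SD and 0.05 in F344. None of these 7 genes passed in either strain. Most had low mean signal over the arrays: Il34 4.30, C3 4.72, Itgb2 4.88, Trem2 4.89, Cx3cl1 5.23 and Tmem119 5.42. These lay below the median of all probe set means, 5.96, and Csf1, at 6.15, lay above it. At low signal a small difference does not show that a gene was unchanged.

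Wider lists of related genes gave no call in the hyperoxia comparison of either strain. Of 27 further microglial and macrophage genes 0 passed, with a median of -0.08 in SD and -0.05 in F344. Ly86, a partner of the Toll-like receptor relative Cd180, was furthest from 0 there, at -0.33 in SD and 0.32 in F344. Of 27 other complement genes 0 passed, with medians of -0.02 in SD and 0.02 in F344, and the values furthest from 0 were -0.28 for the C1 protease C1s in SD and 0.33 for C1qbp in F344. Of 25 partners of the adaptors 0 passed (medians -0.02 and -0.03), with -0.22 for the inhibitory Fc receptor Fcgr2b in SD and 0.33 for the adaptor Blnk in F344. Of 24 activation and phagocytosis genes 0 passed, with a median of -0.06 in each strain.

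The activation gene furthest from 0 in SD was Hmox1, the enzyme that degrades haem. Hmox1 read 4.7 and 4.8 in SD hyperoxia, 5.2, 5.3 and 5.1 in SD room air, 4.7 in all 3 F344 hyperoxia pools and 4.9 in both F344 room-air pools. Both strains thus had every exposed pool below every room-air pool. Taken alone, this held for 8.06% of all probe sets in SD and 6.32% in F344, and the share in both at once was not computed. The log2 differences were -0.45 in SD (limma adjusted p = 0.439) and -0.20 in F344 (limma adjusted p = 0.921). In F344 the activation gene furthest from 0 was Gpnmb at 0.73, and Apoe, a lipid carrier that microglia induce, differed by -0.23 in SD and 0.30 in F344. Gpnmb was 0.80 and Apoe 0.42 higher in the arrays numbered 3, along with Igf1 (0.60), Lgals3 (0.50) and Lpl (0.42), which made 5 of the 24 activation genes called higher there, where 7.22% of all probe sets were. The median of the activation list was 0.05 in that comparison.

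Of the 8 ligands, 0 passed in either hyperoxia comparison, with medians of -0.15 in SD and -0.04 in F344. Cd200, the neuronal ligand that restrains microglia, was furthest from 0, at -0.40 in SD and 0.28 in F344. In the arrays numbered 3, Cd200 and Tgfb1 were each 0.50 higher and Pros1 was 0.35 lower. Thus 2 of the 8 ligands were called higher and 1 lower, beside 7.22% and 7.62% of all probe sets. Of the complement genes, C1qbp (0.35), Clu (0.42), Cr1l (0.30) and Masp2 (0.32) were called higher there, 4 of 27 beside 7.22% of all probe sets, with a list median of 0.12. Between the strains in hyperoxia, Cd47, which tells macrophages not to engulf a cell, was higher in SD by 0.68 (standard error 0.129, limma adjusted p = 0.0408). It was the 1 call among the 8 ligands there, where 0.457% of all probe sets passed. Its adjusted p was close to the threshold, and calls over all probe sets there numbered 38 to 152 when 1 array was left out. In room air Cd47 averaged 9.83 in SD and 9.50 in F344 and was not called.

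Markers of other cell types were read in the same comparisons. All 11 measured astrocyte and endothelial markers were below 0 in SD, with a median of -0.25, and 9 of 11 in F344, with a median of -0.27, but 0 passed in either strain. Their list averaged 5.01 to 5.12 in SD hyperoxia and 5.24 to 5.50 in SD room air, and 5.06 to 5.16 in F344 hyperoxia and 5.21 to 5.42 in F344 room air. The largest was Cd34, a marker of vessel sprouts and progenitors, at -0.82 in SD, and in F344 it was Pdgfra, a receptor of retinal astrocytes, at -0.53. Their part in the microglial values was not tested. Border macrophage markers had medians of 0.07 in SD and -0.12 in F344 (furthest from 0 were Lyve1 at -0.30 and F13a1 at -0.28), with 0 of 12 called in each.

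Red blood cell markers had medians of -0.05 in SD and -0.02 in F344, with Hbb at -0.32 in SD and Slc4a1 at -0.20 in F344. Neutrophil and lymphocyte markers had medians of -0.01 and -0.03, with Ngp at -0.28 in SD and Camp at -0.22 in F344. Neural retina markers had medians of -0.05 and 0.09, with Rcvrn at -0.37 in SD and Crx at 0.32 in F344. Proliferation genes had medians of 0.15 and -0.05, with Mcm5 at 0.40 in SD and -0.32 in F344. These lists had 0 calls in either strain. Mcm5 read 7.4 in SD room-air pool 3 and 7.2 in F344 hyperoxia pool 3, both below all other arrays. In SD room-air pool 3, Hbb read 8.7, Rcvrn 10.3 and Ngp 5.0, each above all other arrays. The part of these pools in the differences was not tested.

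The 10 genes did not follow a single pattern over the arrays. Of their 45 pairs, 28 had a Pearson correlation above 0, and the median was 0.14 over the 10 arrays, which share groups and pools. The highest was 0.79 for Fcer1g and P2ry12 (0.75 with the group means removed), followed by 0.77 for Fcer1g and Aif1 (0.77). The lowest was -0.72 for Aif1 and Csf1r (-0.72). Among the C1q chains, C1qb and C1qc correlated at 0.70 (0.06 with the group means removed), C1qa and C1qb at 0.14 (0.51) and C1qa and C1qc at -0.36 (-0.42). With the group means removed the highest pairs were C1qc and Tyrobp at 0.89 (0.41 before), Fcer1g and Tyrobp at 0.81 (0.68) and C1qc and Aif1 at 0.80 (0.44), and the lowest was Cx3cr1 and P2ry12 at -0.80 (-0.54).

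The mean of the 10 genes was 5.64 ± 0.06 in SD hyperoxia, 5.83 ± 0.13 in SD room air, 5.69 ± 0.10 in F344 hyperoxia and 5.65 ± 0.04 in F344 room air. These group means differ by less than the range of SD room-air pools, 5.71 to 5.97. The 10 non-member genes whose values over the 10 arrays were most like this mean were Elob (r = 0.972), Gng12 (0.953), Necab1 (0.952), Or52ae8b (0.945), Tnip1 (0.940), Mgat4b, Pigx and Igfbp7 (0.937 each), and B2m and Srsf12 (0.936 each). None of them is in the microglial lists. B2m, the light chain of class I histocompatibility molecules, was 1.05 higher in the arrays numbered 3 (limma adjusted p = 4.95e-05). The members' mean was itself 5.97 and 5.80 in those arrays, so likeness to it favours genes that are high there.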

How the data were processed

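Retinal RNA pools of 4 groups (10 arrays) were measured on Affymetrix whole-transcript gene arrays, 1 array per pool, and grouped by the sample titles and strain labels. Each probe set has 1 deposited log2 value per array. RMA and Partek 6.4 appear, with no step assigned to either, per the submitters' processing notes. How background and scaling were handled is not given in the sources used here.

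The platform annotation gives 1 symbol to 15097 of the 27342 probe sets, several to 323 and none to 11922. All entered the fit, and a gene was read from its singly named probe set with the highest mean. Current symbols and gene order came from a RefSeq table of GRCr8, and promoters from RefSeq on the same assembly.

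A limma 3.58.1 model in R 4.3.3 took 1 mean for each group over the 10 arrays (6 residual degrees of freedom). Tests were two-sided with eBayes, adjusted by Benjamini-Hochberg across the whole table, and called below 0.05. The 6 contrasts set hyperoxia against room air within SD and within F344, took the difference and the average of these, and set SD against F344 at each exposure. The script was tested on simulated data. The members, lists and tests were chosen with earlier results of these data known. All 10 members were named. Of 11 other lists, those genes were named that passed or, where none passed in a strain's hyperoxia comparison, the 1 furthest from 0, with Csf1, Il34, Cx3cl1, Trem2, Itgb2, Tmem119, C3 and Apoe always, and the 10 genes most like the members' mean. Some lists share genes, among them Trem2 and Itgb2.

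Replicate numbers were not taken to pair the samples over the 4 groups: of 13 same-number pairs, 4 had deviations from their group means that correlated above 0.1. Of these, 3 were the pairs of SD room air with F344 hyperoxia (0.314, 0.397 and 0.643). No contrast compares these groups as a pair, but both enter the difference and the average of the hyperoxia effects. Deviations cancel within a group, so these 3 correlations are not independent of each other. Alternatives were the probe sets brighter than the median, trend and robust eBayes, quantile normalization, median centring, a gene's mean probe set, a term for the arrays numbered 3 (5 residual degrees of freedom), both left out, a replicate block, and each array left out. Reading that term as a comparison of its own, with its alternatives, was chosen after seeing the data.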

Additional observations from a re-analysis of the deposited data

Results flagged for a closer look

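C1qc was picked from the 10 genes because its pools separated in opposite directions in the strains. Both SD hyperoxia pools (5.9 and 5.9) lay below all SD room-air pools (6.3, 6.2 and 6.6), as in 8.06% of all probe sets. All F344 hyperoxia pools (5.9, 5.9 and 6.0) lay above both F344 room-air pools (5.7 and 5.7), as in 5.97%. These shares are for each strain alone, and the share with both separations at once was not computed. Neither difference passed, and the 95% interval in F344, -0.03 to 0.50, included 0. The SD difference less the F344 difference was -0.70 on the log2 scale (standard error 0.173, 95% interval -1.08 to -0.32). C1qc was picked on these same pools, so this value describes them and is no separate support. The difference of 0.67 between the strains in room air is a part of it. The value of -0.70 did not pass after adjustment over all probe sets (limma adjusted p = 0.651). Without both arrays numbered 3 it was -0.55 (limma adjusted p = 0.714). Groups of 2 and 3 pools were too small to ask whether a single pool lay far from the others of its group.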

How the results depend on the processing

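Under the alternatives 1174 gene values were recomputed. Of these, 1108 neither reversed sign nor changed side of the threshold, 49 changed sign and 17 lost a call. A value of 0 in either fit was not counted as a change of sign. The values that changed sign belong to comparisons in which that gene was not called. C1qc in room air passed in 8 of 8 alternatives other than leaving out an array (0.55 to 0.67), with the replicate block at 0.59 (limma adjusted p = 0.0186). The probe sets brighter than the median include 4 of the 10 genes. Leaving out 1 array at a time, the members called between the strains in room air numbered 0 to 1 and those called in the arrays numbered 3 numbered 0 to 3. With median centring 2 members were called in the arrays numbered 3. The number of arrays, the low signal of some genes and values given to 1 decimal limit what could be detected. By mean signal, 6 of the 10 genes lay below the median of all probe set means, 5.96. Itgam lay above 11.1% of probe sets, Tyrobp above 30.9%, Aif1 above 38.2% and Csf1r, the highest, above 57.9%.

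Sign changes in SD hyperoxia were Itgam at -0.01 with quantile normalization, Tyrobp at 0.01 with median centring, 0.08 with the term for the arrays numbered 3 or the replicate block and 0.10 without both arrays, and Csf1r at -0.03 with the term or block. In F344, P2ry12 was -0.03 with the term or block and -0.05 without both arrays, and C1qa 0.02 with the term or block. Tyrobp was 0.20 in the difference of effects under these 3 settings and 0.01 in the average with median centring. Between strains in room air Tyrobp was -0.08 with the term or block and -0.10 without both arrays, and in hyperoxia C1qc was 0.04 with the term or block. Itgam was -0.02 in the arrays numbered 3 with median centring. Their causes were not tested.

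Leaving out 1 array gave these ranges where a sign changed. In SD hyperoxia Tyrobp ranged from -0.15 to 0.10, Cx3cr1 from -0.37 to 0.03 and Itgam from -0.03 to 0.07. In F344 C1qa ranged from -0.17 to 0.13, C1qb from -0.03 to 0.17 and P2ry12 from -0.05 to 0.17. In the difference of effects Tyrobp ranged from -0.15 to 0.10. In the average C1qa ranged from -0.01 to 0.14, Tyrobp from -0.07 to 0.05, Itgam from -0.09 to 0.01 and P2ry12 from -0.13 to 0.02. Between strains in room air C1qa ranged from -0.20 to 0.10, Tyrobp from -0.10 to 0.15, Cx3cr1 from -0.13 to 0.07 and Itgam from -0.07 to 0.13. In hyperoxia C1qa ranged from -0.03 to 0.27, C1qb from -0.07 to 0.13, Cx3cr1 from -0.23 to 0.17 and P2ry12 from -0.27 to 0.03. In the arrays numbered 3 C1qb ranged from -0.01 to 0.16, Cx3cr1 from -0.20 to 0.05 and Itgam from -0.05 to 0.15. Some differences that were 0.00 with all arrays also ranged over both signs. These were Tyrobp in F344 and between strains in hyperoxia (-0.10 to 0.10 each), Cx3cr1 in the difference of effects (-0.20 to 0.20) and Csf1r between strains in room air (-0.10 to 0.10).

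Calls over all probe sets moved more. In SD hyperoxia there were 12, against 27 with the term, 1 without both arrays, 7 with median centring or mean probe sets and 1 to 9 without 1 array. In F344 there was 1, against 4 with the term, 3 with the block and 0 without both arrays. The average had 11, against 44 with the term, 36 with the block and 2 without both arrays, room air 152, against 378 with the term, 300 with the block and 33 to 224 without 1 array, and hyperoxia 125, against 234 with the term, 199 with the block and 38 to 152 without 1 array. In room air 97 and in hyperoxia 78 were called among the brighter probe sets.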
